A study of Homo sapiens with 4 samples.

Results

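The dense intervals beside centromeres and chromosome ends are 870 entries of a list of 21308 genomic intervals listed as peaks of a GATA4 experiment (4.08%). They are the entries whose start lies in 1 of 7 stretches of 6 chromosomes: chromosome 1 (142.5 to 143.6 Mb), chromosome 4 (190.4 to 191.0 Mb), chromosome 5 (46.3 to 46.5 Mb), chromosome 9 (68.4 to 70.1 Mb), chromosome 16 (33.3 to 34.1 Mb, the first chromosome 16 stretch, and 46.3 to 46.5 Mb, the second) and chromosome 21 (9.8 to 11.2 Mb). The stretches were chosen by how densely the listed intervals lie there, so the counts, coverage and gaps below describe that choice and are not support for anything. Widths come from the same list and the same libraries. No test was made of any difference. The list holds only peaks labelled as common to its libraries. Intervals are not replicates, and a spread between libraries could not be measured.

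GATA4 was mapped by CUT&RUN, in which an antibody guides a nuclease to its target and the released DNA is sequenced, in the established pancreatic adenocarcinoma cell line PaTu8988S. The cells carried no labelled genetic change or treatment and formed 1 group of 4 libraries, each from 500000 cells and 10 ug of the GATA4 antibody MAB2606. The series asks about GATA4 and GATA6 in the classical expression programme of pancreatic cancer. The labels do not say whether the libraries came from separate cultures, and a library with a non-specific antibody was not analysed here. Each interval has a chromosome, a start and an end in build hg19, and no score or read count.

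GATA4 is a zinc-finger transcription factor that binds GATA motifs at enhancers and promoters and takes part in the development of heart, stomach, liver and pancreas. The DNA beside human centromeres and at chromosome ends is of another kind: it is rich in satellite arrays and in long duplicated segments that occur on several chromosomes in near-identical copies. Short reads from such copies are hard to place uniquely, and an assembly often holds fewer copies than the cells do. Stretches of this kind are known to collect reads in many assays of protein binding, with or without a specific antibody. Whether repeats, duplicated copies or read placement had a part in the intervals described here was not tested, and neither the hg19 sequence nor its annotation was used.

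The label of these intervals was checked only against the empty parts of the list, since hg19 centromere positions were not used. On chromosome 1 the first member, from 142535430 to 142541669, is the first listed interval after 21.1 Mb without any, the longest empty part of that chromosome. On chromosome 16 the second stretch opens in the same way, with an interval from 46416470 to 46435764 that follows 11.1 Mb without any. The first chromosome 16 stretch lies on the other side of that empty part, 1.27 Mb before its beginning. The chromosome 9 stretch begins 1.94 Mb after the longest empty part of chromosome 9, which is 21.1 Mb long. On chromosome 5 the last member ends at 46405385 and the next listed interval lies 3.00 Mb further on. On chromosome 21 the last member ends at 11188133 and the next listed interval lies 3.15 Mb further on. The longest empty parts of chromosomes 5 and 21 are elsewhere, 36.7 and 11.04 Mb away. Chromosome 4 has the only one of the 7 that lies at a long arm's end: 13 listed intervals follow it, and the last of them ends 61.1 kb after the last member. The chromosome 21 stretch begins 399 kb after the first listed interval of its chromosome.

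**Figure D1:**
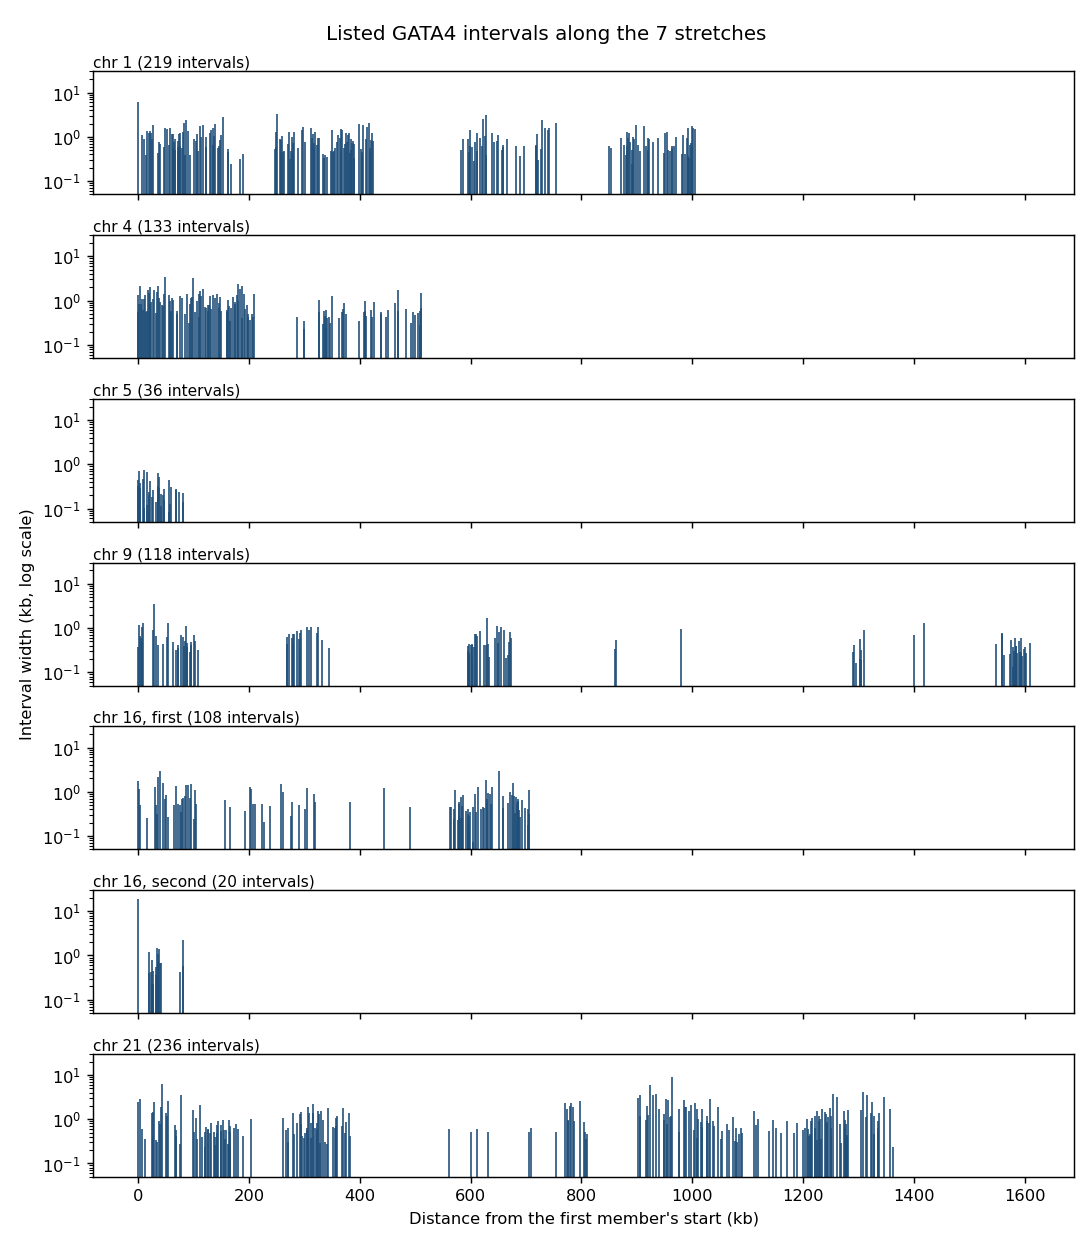
Each line is 1 listed interval, drawn at its distance in kb from the first member's start (horizontal axis) and as tall as its width in kb (vertical axis, log scale), for the 7 stretches. Members stand in blocks parted by empty gaps on 6 of the 7, and the tallest line, 19.3 kb, opens the second chromosome 16 stretch.

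The 7 stretches add up to 6 Mb, of which the members covered 794 kb or 13.2%. The rest of the same 6 chromosomes, 885 Mb with 3774 intervals, was covered to 0.286%, so coverage was 46.3 times higher inside. Members numbered 145 per Mb against 4.27 per Mb in the rest. Chromosomes 21 and 1 supplied 52.3% of the members, with 236 and 219. Chromosome 4 had 133, chromosome 9 had 118, the first chromosome 16 stretch 108, chromosome 5 had 36 and the second chromosome 16 stretch 20.

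Coverage fell into unequal levels among the stretches. It was 20.1% on chromosome 4, 19.5% on chromosome 21, 19.0% on chromosome 1 and 16.7% in the second chromosome 16 stretch. The first chromosome 16 stretch had 9.79%, chromosome 5 had 5.47% and chromosome 9 had 4.04%. Against the rest of its own chromosome each of these was higher, from 15.2 times on chromosome 21 to 115 times on chromosome 4. The length of the rest includes long empty parts, which lower its coverage. Without the chromosome's longest empty part, the rest was covered to 1.65% in place of 1.29% on chromosome 21. On chromosome 4 it was 0.182% in place of 0.175%. The low ratio of chromosome 21 goes with a rest that is itself dense, at 15.3 intervals per Mb. Of that chromosome's 566 other intervals, 346 lie in a single block from 16306228 to 17216982. Part of the order reflects where the borders were set: measured from the first to the last member, chromosome 5 was covered to 13.4% and the second chromosome 16 stretch to 39.7%, while chromosome 9 stayed at 4.27%.

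Small parts of a chromosome thus held large parts of its intervals. The chromosome 21 stretch is 3.64% of the span from that chromosome's first to last listed interval and held 29.4% of its intervals and 36.4% of its covered bases. On chromosome 4 a stretch of 0.314% of the span held 21.3% of intervals and 26.5% of covered bases. The chromosome 9 stretch held 21.9% of intervals, both chromosome 16 stretches together 19.5%, the chromosome 1 stretch 15.8% and the chromosome 5 stretch 5.70%.

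**Figure D2:**
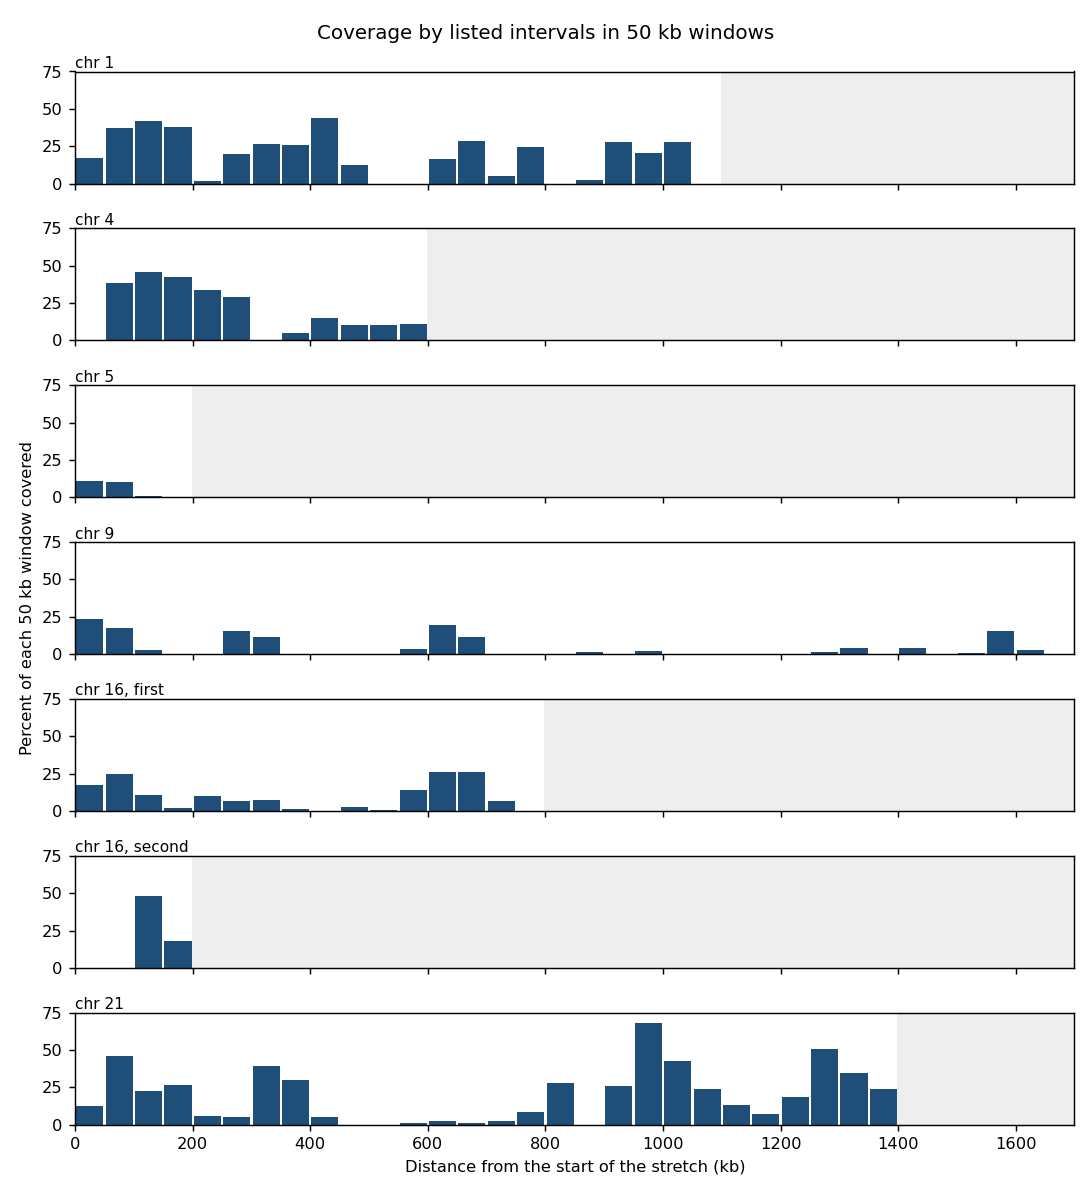
Bars give the percent of each 50 kb window covered by listed intervals, against the window's distance in kb from the start of the stretch; grey marks ground beyond the stretch. The highest bar, 68.0%, is on chromosome 21, and chromosome 9 has 18 empty windows of 34.

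The chromosome 21 stretch held the most members and, at 273 kb, the most covered bases. Its 236 members ran from 9825432 to 11188133 in 14 blocks, where a block ends at a gap of more than 12500 bp. The largest blocks were from 10727471 to 10915990, with 51 members that covered 44.6% of it, and from 10963246 to 11108206, with 45 members and 30.2%. A block of 45 members from 10087176 to 10207461 was covered to 33.3%. Between these, from 10207461 to 10596182, only 7 members were listed, and the longest empty gap there was 178 kb. Widths differed between blocks, with medians of 566 bp from 9925275 to 10015678 and 1155 bp from 10727471 to 10915990. The window from 10750000 to 10800000, with the widest member of this chromosome (10788209 to 10797254, 9045 bp), was the most covered 50 kb of all of chromosome 21, at 68.0% against at most 52.9% outside the stretch. It held 11 interval starts, against 24 in the most covered window of the chromosome 1 stretch (43.9%).

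The chromosome 1 stretch held 219 members from 142535430 to 143541233 in 8 blocks. The 2 largest blocks lay towards the empty 21.1 Mb: 60 members from 142535430 to 142702527 covered 40.3% and 72 members from 142783305 to 142960641 covered 36.1%. Between them stood a pair of members that covered 11.8% of the ground from 142719278 to 142725486. After a gap of 158 kb the larger blocks held 25 members from 143118180 to 143202644 (27.6%) and 45 from 143405921 to 143541233 (28.1%). The first member, 6239 bp, was also the widest, 1.91 times the next, and 0 of the other 218 reached 5 kb. Of the 20 most covered 50 kb windows of chromosome 1, 12 lay in the stretch, although the single most covered one (52.3%) did not.

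The chromosome 4 stretch was split into a full and a thin part. From 190470705 to 190681129, 89 members covered 44.9% with a median width of 944 bp. After an empty gap of 76.4 kb, 44 members in 3 blocks reached to 190982576, with 7.67%, 18.5% and 14.2% of the blocks covered and median widths of 353, 530 and 554 bp. The thin part is the one nearer to the chromosome's end. The widest member lay in the full part, from 190520063 to 190523464 (3401 bp).

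The chromosome 9 stretch had the largest share of its ground in long gaps. Its 118 members stood in 10 blocks, and gaps of more than 12500 bp took up 79.3% of the ground from the first to the last member, against at most 53.9% in the other stretches. The longest ran from 69381945 to 69690226 (308 kb). The largest blocks held 30 members from 68996353 to 69074034 (21.9% covered), 25 from 69948937 to 70010068 (15.4%) and 24 from 68427603 to 68509089 (20.1%). The last of these 3 held the widest member, from 68429231 to 68432737 (3506 bp), which was 2.07 times as wide as the next.

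The first chromosome 16 stretch was full towards both ends and thin between. A block of 24 members from 33341154 to 33416065 (30.6% covered) and one of 58 members from 33873989 to 34016773 (25.5%) held most of its 108 members. The ground between them, from 33416065 to 33873989, carried 22 members in 7 blocks. The widest member was 2979 bp (33961609 to 33964588) and the narrowest 74 bp, the narrowest of all 870.

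The second chromosome 16 stretch rested on 1 interval. Of its 20 members, the first, from 46416470 to 46435764, was 19294 bp wide, 8.75 times the next and 57.8% of all covered bases of the stretch. Without it coverage was 7.04% in place of 16.7%, while the median width was 589 bp in place of 630.5 bp. The other 19 ranged from 223 to 2206 bp. They followed closely: the next began 11 bp after the wide one, 16 lay within the following 23 kb, and the last 3 stood apart after a gap of 33.2 kb.

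The chromosome 5 stretch stood apart from the other 6 in width. Its 36 members formed 1 unbroken block from 46323525 to 46405385. They were narrow, from 80 to 762 bp with a median of 270 bp; 22 of 36 (61.1%) were under 300 bp and 0 reached 1 kb. In the other stretches between 1.83% and 18.6% of members were under 300 bp. On the rest of chromosome 5 the share was 12.75%. In number they were not sparse, at 180 per Mb, and their median gap of 951 bp lay within the range of the other stretches.

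Over all 7 stretches the median member was 655.5 bp wide (quartiles 447 and 1128 bp), against 545.5 bp (389 and 793 bp) for the rest of the 6 chromosomes, a ratio of 1.20. Members of 1 kb or more made up 29.7% of the 870 against 14.6% of the rest. The pooled ratio hides both directions. The median was above that of the chromosome's own rest on chromosome 4 (736 against 491.5 bp, 1.497 times), chromosome 1 (786 against 540 bp, 1.46 times), chromosome 21 (829.5 against 707.5 bp, 1.17 times) and in the second chromosome 16 stretch (630.5 against 576 bp, 1.09 times). It was below it in the first chromosome 16 stretch (554 against 576 bp, 0.96 times), on chromosome 9 (471.5 against 515 bp, 0.92 times) and on chromosome 5 (270 against 501 bp, 0.54 times). In the first chromosome 16 stretch the direction depended on the measure. Its upper quartile was larger than that of the rest, at 882 against 764 bp. Intervals of 1 kb or more made up 21.3% there against 12.3%. The 95% binomial interval of a stretch's median covers variation between intervals only. It treats them as independent, takes the rest's median as fixed and is no test. With it the ratio ran from 0.72 to 1.86 in the second chromosome 16 stretch. In the first it ran from 0.868 to 1.12, and on chromosome 9 from 0.821 to 1.12. These 3 ranges include 1, and a range without 1 would not show a difference that holds over libraries. After intervals within 1 kb were merged, which widens them where they are dense, the 3 ratios below 1 turned to 1.04 in the first chromosome 16 stretch, 1.45 on chromosome 9 and 1.77 on chromosome 5, and that of the second chromosome 16 stretch moved to 5.65. The quartile ranges of stretch and rest overlapped on every one of these chromosomes.

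**Figure D3:**
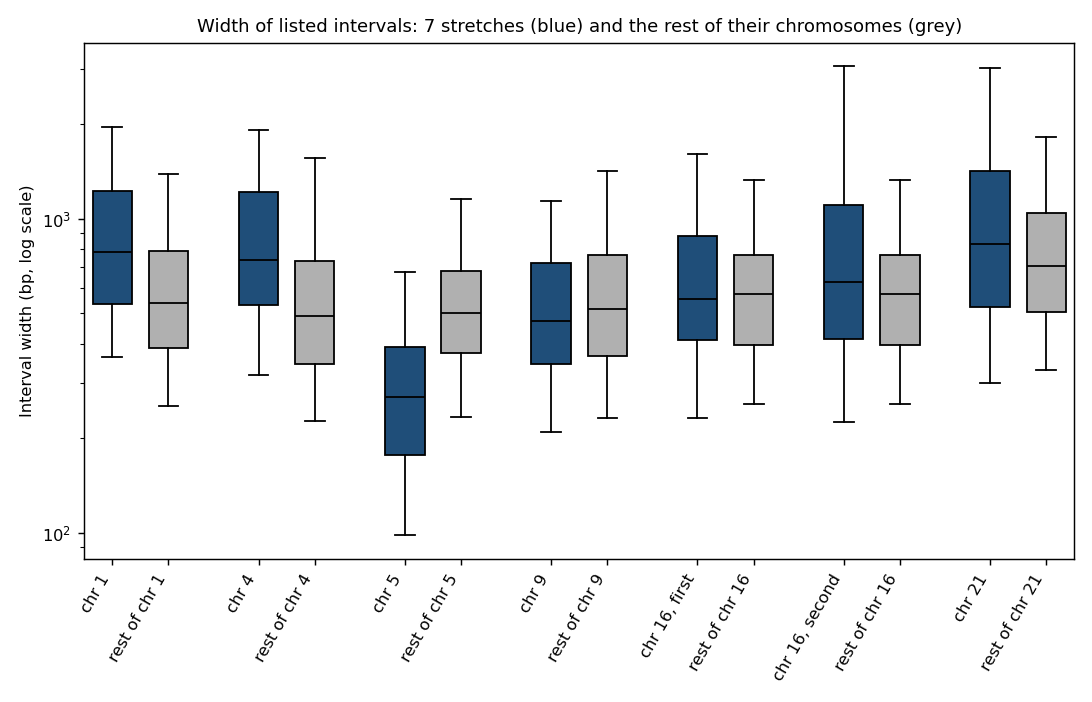
Boxes give the quartiles and median of interval width in bp (log scale) for each stretch (blue) and the rest of its chromosome (grey), with whiskers at the 5th and 95th percentiles. Blue lies highest above grey on chromosomes 4 and 1 and lies below it on chromosome 5, where the medians are 270 and 501 bp.

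Pooled widths went with closeness in the rest of the 6 chromosomes and, up to a distance of 12500 bp, among members. Intervals whose nearest neighbour lay within 1 kb had a median width of 713 bp among members (555 of them) and 698.5 bp in the rest (918). With the nearest neighbour between 1 kb and 12500 bp away, the medians were 592.5 bp (304 members) and 597 bp (1093). With the nearest neighbour farther off they were 605 bp for 11 members and 485 bp for the 1763 in the rest, which is 46.7% of the rest but 1.26% of members. At like spacing the pooled medians of members and rest lay within 15 bp of each other in both closer classes. These medians mix chromosomes. In the closest class, 315 of the 918 in the rest lay on chromosome 21, against 157 of the 555 members. Single stretches still differed. With a neighbour within 1 kb, the median was 873.5 bp on chromosome 1 against 605 bp in its rest. It was 787 against 689 bp on chromosome 4 and 903 against 788 bp on chromosome 21. On chromosome 9 it was 445 against 628.5 bp, and on chromosome 5 276.5 against 674.5 bp. The first and second chromosome 16 stretches lay closer to their rest, at 683 and 630.5 bp against 641 bp. Between both closer classes, chromosome 9 members and the rest of chromosome 1 went against the pooled order. With the nearest neighbour farther off than 1 kb and up to 12500 bp away, their medians were larger, at 508 and 628.5 bp. In the farthest class, which held few members, the order also broke. The median there was 947 bp for 3 chromosome 9 members. In the first chromosome 16 stretch it was 511 bp for 4 members, against 500 bp in the class before.

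The median gap between neighbouring members was 1347 bp (quartiles 360 and 3334 bp), against 27198 bp in the rest of the 6 chromosomes. Stretch medians ran from 323 bp in the second chromosome 16 stretch to 1928 bp in the first. On chromosome 21 the rest was nearly as close, at 1869.5 bp against 1403 bp in the stretch. Elsewhere the median gap of the rest was 11.9 to 80.0 times longer.

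Many members were parted by very small gaps. Of 863 gaps between members 116 (13.4%) were 100 bp or shorter, against 4.84% in the rest, and 375 (43.5%) were 1 kb or shorter, against 15.2%. Members parted by at most 100 bp formed 92 runs with 208 members (23.9%), of which 18 held 3 or 4 members. Such members were most common in the second chromosome 16 stretch (40.0%) and on chromosome 21 (32.6%). No matching share in runs was computed for the rest or for other dense places of the list. The longest run was the 19294 bp interval with its next neighbour, 19.7 kb in all. On chromosome 21 a run from 10787003 to 10797254 joined 2 members across 2 bp, and one from 10748906 to 10758520 joined 2 across 10 bp. On chromosome 1 a run of 3 members from 143533210 to 143536270 had gaps of 1 and 4 bp. Whether such a run was one bound stretch in the libraries cannot be read from a list of ends.

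**Figure D4:**
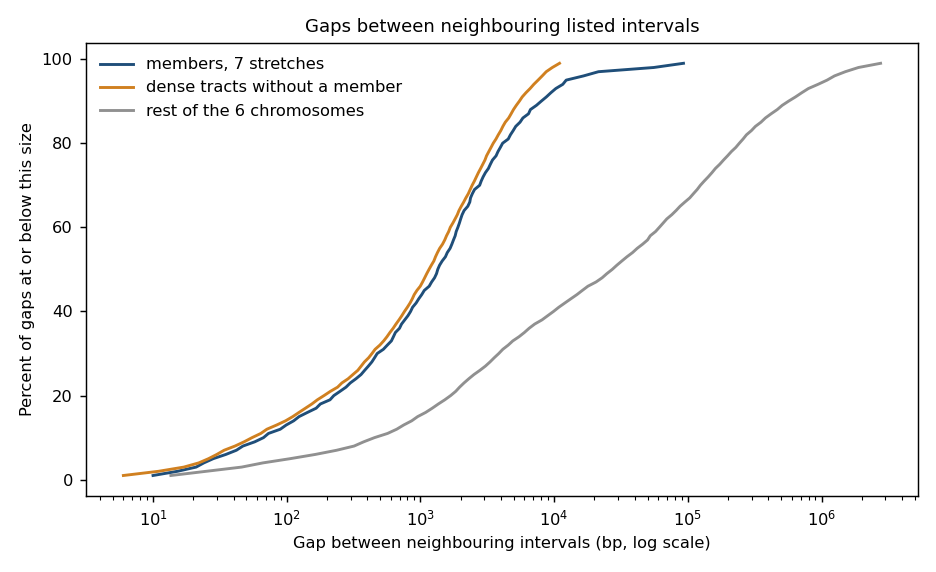
Curves give the percent of gaps between neighbouring intervals that are at or below a size in bp (log scale), for members, for dense tracts without a member and for the rest of the 6 chromosomes. The member curve runs close to that of the other dense tracts up to its median of 1347 bp. Gaps decide what forms a tract and members were chosen where intervals are dense, so this likeness is partly built in. The member curve starts near that of the rest (1st percentile 10 against 13.6 bp) and lies far to its left at the median (1347 against 27198 bp).

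In spacing the members lay close to other dense places of the list. Clusters of 20 or more intervals with at most 12500 bp between neighbours, here dense tracts, held 711 of the 870 members in 17 tracts, and 3746 intervals in 79 tracts without a member. The tracts with members were covered to 31.5% and had a median gap of 1179 bp, against 32.5% and 1159 bp in the others. Gaps of 100 bp or less made up 14.1% and 14.2%. The median width was 674 bp against 777 bp, or 713 bp in the 12 tracts without a member on the same 6 chromosomes. Intervals of 1 kb or more made up 29.7% in the tracts with members, 35.2% in the others and 28.6% in those 12. Of all 79 tracts without a member, 56 had a median above the members' 655.5 bp. The largest such tracts, on chromosomes 21 (16306228 to 17216982), 18 (21466132 to 22104860) and 19 (39264410 to 39901666), had median widths of 771.5, 854 and 1011 bp. Under 300 bp there were 9.43% of members, 7.77% of the intervals of the 79 tracts and 10.4% of the rest of the 6 chromosomes; in these 3 largest tracts the share was 0.87%, 1.52% and 0.43%. Since the gaps decide what forms a tract, the likeness in gaps is partly built in. The second chromosome 16 stretch holds no tract, as its largest block has 17 members.

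The borders of the stretches are round numbers, and the density did not always end there. On chromosome 9 the first member begins at 68400763, only 2.25 kb after a listed interval from 68397971 to 68398508 that lies outside the border, and 7 outside intervals from 68382989 on are linked with members. On chromosome 16 an interval from 33294893 to 33297521 (2628 bp) lies 13.0 kb before the first member of the first stretch, and 37 intervals lie within 500 kb before it. All 46 intervals that precede the chromosome 21 stretch on its chromosome lie within 500 kb of it, the nearest from 9738140 to 9738589. On chromosome 4 the first interval after the last member runs from 191020804 to 191022079, 38.2 kb on. Within 500 kb of the chromosome 5 stretch there were 0 listed intervals on either side.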

How the data were processed

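Per the labels, the deposited list holds the peaks common to the 4 libraries; its start and end positions (other values: bp, with no score or count) are as the authors left them. Per the submitters' processing notes, SEACR and HOMER were used with build hg19; the sources used here give no version, no parameter and no rule for a common peak. Read depth is unknown. Starts may count from 0 or from 1, so a width (end minus start) may be 1 bp short.

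Intervals of the autosomes and chromosome X (21139) were used. Members had their start inside a stretch. The rest of a chromosome was measured from its first to its last listed interval, less the stretches. Gaps were taken between neighbours within 1 stretch. Code was tested on simulated positions and run with matplotlib 3.10.9, scipy 1.17.1 (binomial intervals), pandas 2.3.3 and numpy 2.4.6 under Python 3.11.15. Intervals named by position are the first, last and widest of each stretch, the 10 widest members, the widest gaps and the nearest outside neighbours; the blocks, windows and runs of close members were chosen after their values were seen. Members, stretches and measures were chosen with earlier results of these data known. Motifs, repeats, sequences and genes need hg19 sequence or annotation and were not analysed here.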

Additional observations from a re-analysis of the deposited data

How the results depend on the processing

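Of 154 recomputed values, 100 stayed within 1.5 times (counts and densities), within the 95% binomial interval of the median, or within that of the covered share, which treats bases as independent and is very narrow; 49 moved further and 5 changed direction. Merging intervals within 1 kb left 495 members (82.5 per Mb, 15.4% covered, median width 1035 bp, median gap 2926 bp) and a gap of 51567.5 bp in the rest; the width ratio became 1.87, as merging widens intervals where they are dense by construction. Merging within 100 bp gave 13.3% covered and gaps of 1746 and 33385 bp. Intervals at or above the list's median width left 509 members (84.8 per Mb, 10.8% covered), median widths of 1008 and 829 bp and gaps of 1962.5 and 18766.5 bp. Requiring the whole interval inside gave 13.197% covered in place of 13.234%, and lengths from first to last member 14.8%. With a rest free of dense tracts its median width was 527.5 bp and its gap 57879 bp. With all other listed intervals as the rest these were 584 and 17724 bp, and the width ratio 1.12. The width ratio turned above 1 when merged within 1 kb on chromosome 5 (1.77), chromosome 9 (1.45) and in the first chromosome 16 stretch (1.04), on chromosome 9 when merged within 100 bp (1.02), and in the first chromosome 16 stretch among the wider intervals (1.25).

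Leaving out 1 stretch at a time gave 11.3% to 16.9% covered, median widths of 623.5 to 699.5 bp for members and 528 to 560 bp for the rest, width ratios of 1.14 to 1.27, and a gap of 18811 to 47508 bp in the rest; the highest gap is without chromosome 21, whose rest is dense. Alternatives on motifs, GC content, repeats and genes were not run for want of hg19 sequence and annotation. Libraries could not be left out of a list that holds only common peaks. No paired analysis was possible because the labels give 1 group. Depth is unknown, so an empty gap shows only that no common interval was listed there.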

Other observations

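The remaining members among the 10 widest all lay on chromosome 21: from 9869033 to 9875411 (6378 bp), 10748906 to 10754963 (6057 bp), 11133708 to 11137926 (4218 bp), 11079922 to 11083652 (3730 bp), 10759242 to 10762890 (3648 bp), 10731783 to 10735385 (3602 bp) and 10754973 to 10758520 (3547 bp). Of these 7, 4 lie between 10731783 and 10762890, in the first part of the block from 10727471 to 10915990. Its median width of 1155 bp was the largest among the blocks of over 14 members. Some smaller blocks had larger medians, such as 1395.5 bp for the 14 members from 11129151 to 11188133. Members made up 4.08% of the list and 5 of its 53 intervals of 5 kb or more, a small count that was not tested.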
